A study of Drosophila melanogaster with 15 samples.

Results

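Nuclear genes encode every subunit of respiratory complex II and most subunits of complexes III, IV and V, and 34 of them were measured in larval brains of Drosophila melanogaster among 8990 genes of the count table. They were chosen by symbol, as every gene whose name begins with COX and a digit, ATPsyn, UQCR or SdhA to SdhD, together with blw, RFeSP, Cyt-c1, Cyt-c-p, levy and cype. Complex II had 4 members, complex III 7, cytochrome c 1, complex IV 10 and complex V 12. A further 19 genes whose symbols match were absent from the count table, nearly all of them named as paralogs such as COX4L. The exception was UQCR-14, a complex III gene on X. All 34 members passed the filter on low counts.

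The series profiled polyadenylated RNA of brains from female late L3 larvae raised at 25 °C, in 15 libraries of 5 genotypes, in a study of mitochondria and protein quality control in microcephaly that follows chromosomal instability. CDXY larvae had an attached X, C(1)DX, and a Y chromosome, and CDXX larvae had C(1)DX and a free X, so 3 copies of X in place of 2. C2L larvae had C(2L)SH1, a compound left arm of chromosome 2, and T2L was taken to be the remaining stated genotype, C(2L)SH1/+, because the other labels matched the rest, with 3 copies of the arm 2L in place of 2. Oregon is a laboratory strain with ordinary chromosomes whose age was not given. Both controls, CDXY and C2L, were dissected at 5 days of age counted from egg laying, while CDXX and T2L were dissected at 8 days, and so the effects of age and genotype cannot be told apart in either comparison. Each library pooled 3 brains, and the 3 libraries of a genotype came from different days. The labels give them the batch numbers 4, 5 and 6, used here as replicate numbers, and do not say whether 1 number is 1 day. No source said how the larvae of different days were related, so p-values measure the spread between such pools.

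Total counts per library ran from 22949943 to 28272926. The pan-neuronal gene elav stood at 251 to 551 CPM (read counts scaled to one common library total) over the 15 libraries and the glial gene repo at 102 to 178 CPM. One library stood apart for the subunits: Oregon replicate 6 had the highest CPM of its genotype for 34 of 34 members. C2L replicate 4 was the highest of its genotype for 33 members and T2L replicate 5 for 28. C2L replicate 5 was the lowest of its genotype for 30 members, CDXY replicate 4 for 27 and T2L replicate 6 for 21, so most subunits were high or low together in those libraries.

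The respiratory chain passes electrons to oxygen and pumps protons across the inner mitochondrial membrane. Complex II takes electrons from succinate and is also an enzyme of the citric acid cycle, complex III passes them from ubiquinol to cytochrome c, and complex IV, cytochrome c oxidase, hands them to oxygen. Complex V, the ATP synthase, lets protons back through a rotating ring and makes ATP. Subunits of complexes III to V come from both the nuclear and the mitochondrial genome and are joined in fixed ratios, and larval neural stem cells and neurons both depend on this pathway for growth and activity.

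The members lie on all major chromosome arms, with 2 on X, 6 on 2L, 7 on 2R, 7 on 3L, 11 on 3R and 1 on chromosome 4. The X-linked members are COX6B (19740537 to 19744335 in dm6 coordinates, minus strand) and ATPsyndelta (10212970 to 10217393, plus strand). Those on 2L are RFeSP (1612429 to 1614160), cype (5327227 to 5327969), COX5B (6557800 to 6559308), ATPsynG (10975522 to 10976399), Cyt-c-p (16719932 to 16722644) and COX4 (19958713 to 19960065). ATPsynbeta is the member on chromosome 4 (1031484 to 1034917). Because the strand setting of the counting was not given, counts of UQCR-6.4 and ATPsyndelta are uncertain, since 40.5% and 35.6% of their exon bases overlap POSH and CG2962 on the opposite strand. COX6B shares 9.38% of its exon bases with CG18809 on the same strand.

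The subunit mRNAs were abundant in all 5 genotypes. Per kilobase of exon, the median member stood at 189 CPM in the mean of 15 libraries, against 15.3 CPM per kilobase for the median gene of the table, and 28 of 34 members were at or above the 90th percentile of all genes. The highest were 3 ATP synthase genes: ATPsynC, the proton-carrying ring subunit, at 732 CPM per kilobase, ATPsynbeta, the catalytic subunit, at 563, and blw, the alpha subunit that alternates with it in the F1 head, at 507. The complex II genes were low, from 58.1 CPM per kilobase for SdhA to 79.0 for SdhB, though UQCR-11 of complex III was below them all. The lowest single member was ATPsyndelta of the central stalk at 49.8, counted on 3817 exon bases. Without scaling by length it had 190 CPM, close to ATPsynF at 187 and ATPsynG at 183. Levels of neighbours in this order often overlap within their spread, and transcripts of different lengths were counted on the union of their exons.

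**Figure D1:**
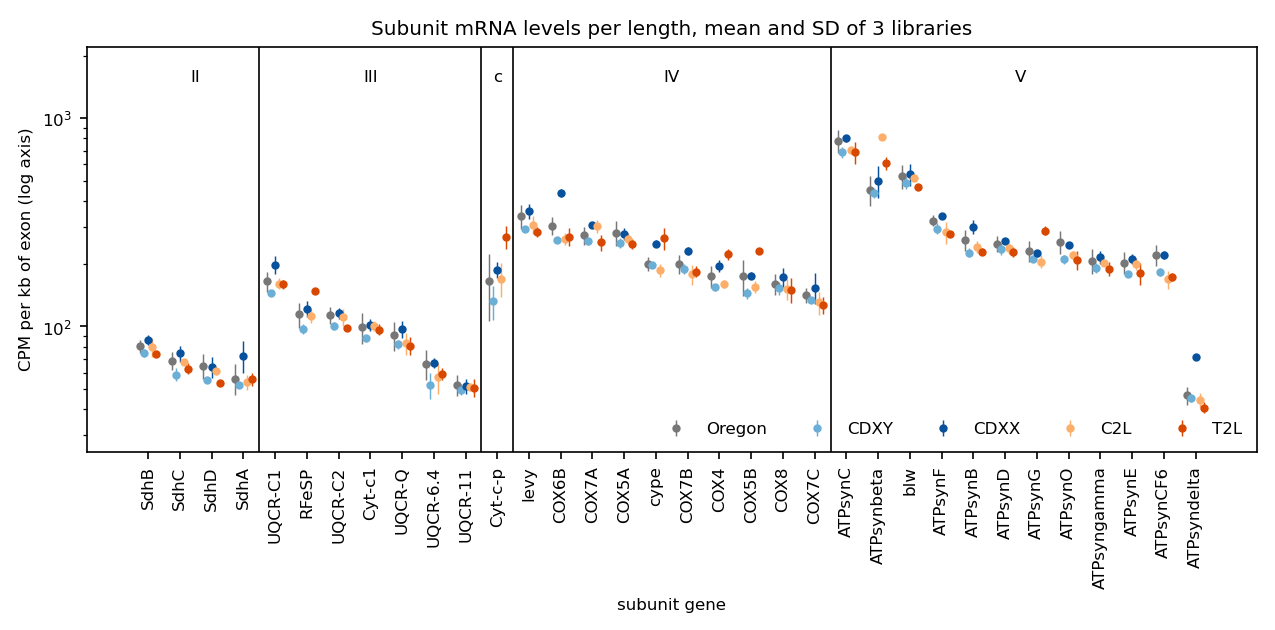
Level of each subunit mRNA per kilobase of exon (CPM per kb, log axis) in the 5 genotypes, as mean and SD of 3 libraries, with genes ordered within complexes II, III, cytochrome c (c), IV and V. ATPsynC, ATPsynbeta and blw are the highest, complex II genes lie below 90 CPM per kb, and single genes such as COX6B and ATPsyndelta in CDXX or COX5B in T2L stand above their other genotypes.

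In CDXX brains, 13 of the 34 subunit genes were higher than in CDXY and none was lower, with the others not called (edgeR quasi-likelihood test, adjusted p under 0.05 over 8981 genes). Over all genes tested, 23.1% were called higher and 20.8% lower. The 13 were SdhA and SdhC of complex II, UQCR-C1 and RFeSP of complex III, COX4, COX6B, COX7A, COX7B, cype and levy of complex IV, and ATPsynB, ATPsynCF6 and ATPsyndelta of complex V. The fitted difference was above 0 for all 34 members, with a median of 0.25 on the log2 scale, used for all differences that follow, against 0.018 over all genes, and the median of the members within batches was 0.31, 0.21 and 0.25 in batches 4, 5 and 6. All 3 CDXX libraries were above all 3 CDXY libraries for 27 members, where 27% of all genes stood so.

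The count of calls was smaller with another control or with a developmental covariate. Against Oregon, a comparison added after the data were seen that shares the CDXX libraries, 4 of 34 members were higher (ATPsyndelta, COX6B, cype and UQCR-C1, beside 18.7% of all genes) and the median was 0.085 (−0.0040 over all genes). With the mean level of ecdysone-response genes as a covariate, 0 of 34 members were called and 220 of all genes. Without it, 2071 of all genes were called higher and 1871 lower. Ecdysone is the steroid hormone that times the end of larval life, and of 19 genes of its response 11 were lower in CDXX and 2 higher, with summed levels of 2083 to 3675 CPM in CDXX and 4051 to 6166 in CDXY. The covariate averaged log2 CPM over these genes in each library. The summed levels, another measure of the same genes, do not overlap between CDXX and CDXY. A covariate so tied to genotype and age cannot be told apart from them in this fit. The part of the ecdysone genes in the subunit result was therefore not tested.

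Markers of other cells also differed between the genotypes, where 23.1% of all genes were called higher in CDXX and 20.8% lower. Of 13 muscle genes 9 were higher in CDXX and none lower, with sums of 438 to 909 CPM against 394 to 444, and the myosin gene Mhc had 10.0, 57.4 and 14.3 CPM in CDXX replicates 4, 5 and 6 and 0.721, 0 and 3.86 in CDXY. Of 10 hemocyte genes 4 were higher, with sums of 716 to 2679 CPM against 127 to 470. Of 9 glial genes 3 were higher and 1 lower, with sums of 2151 to 2270 against 997 to 1224, and of 11 neuronal genes 3 were higher. The glial sums differed mostly through the X-linked Gs2, at 220 ± 60.9 CPM (SD over 3 libraries) in CDXY and 1104 ± 77.5 in CDXX. Also higher were moody on X and nrv2 on 2L, while wrapper was lower and repo (127 ± 22.8 and 147 ± 27.8 CPM) was not called. Of 9 neuroblast genes 1 was higher and 1 lower, of 8 fat body genes 2 were higher, and of 8 genes of the ring gland and trachea none was called. Some higher genes outside glia lie on X: wupA and up of muscle, para and futsch of neurons, l(1)sc of neuroblasts and Lsp1alpha of fat body. The other higher genes outside glia lie on other chromosomes. Of X-linked genes that are not members, 57.6% were called higher in CDXX. The ring gland and trachea sums were uneven between libraries of one genotype, at 198 to 838 CPM in CDXX and 113.5 to 1040 in CDXY. The part of these cells in the subunit levels was not tested, and in whole brains more cells of a type and more RNA per cell cannot be told apart.

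**Figure D2:**
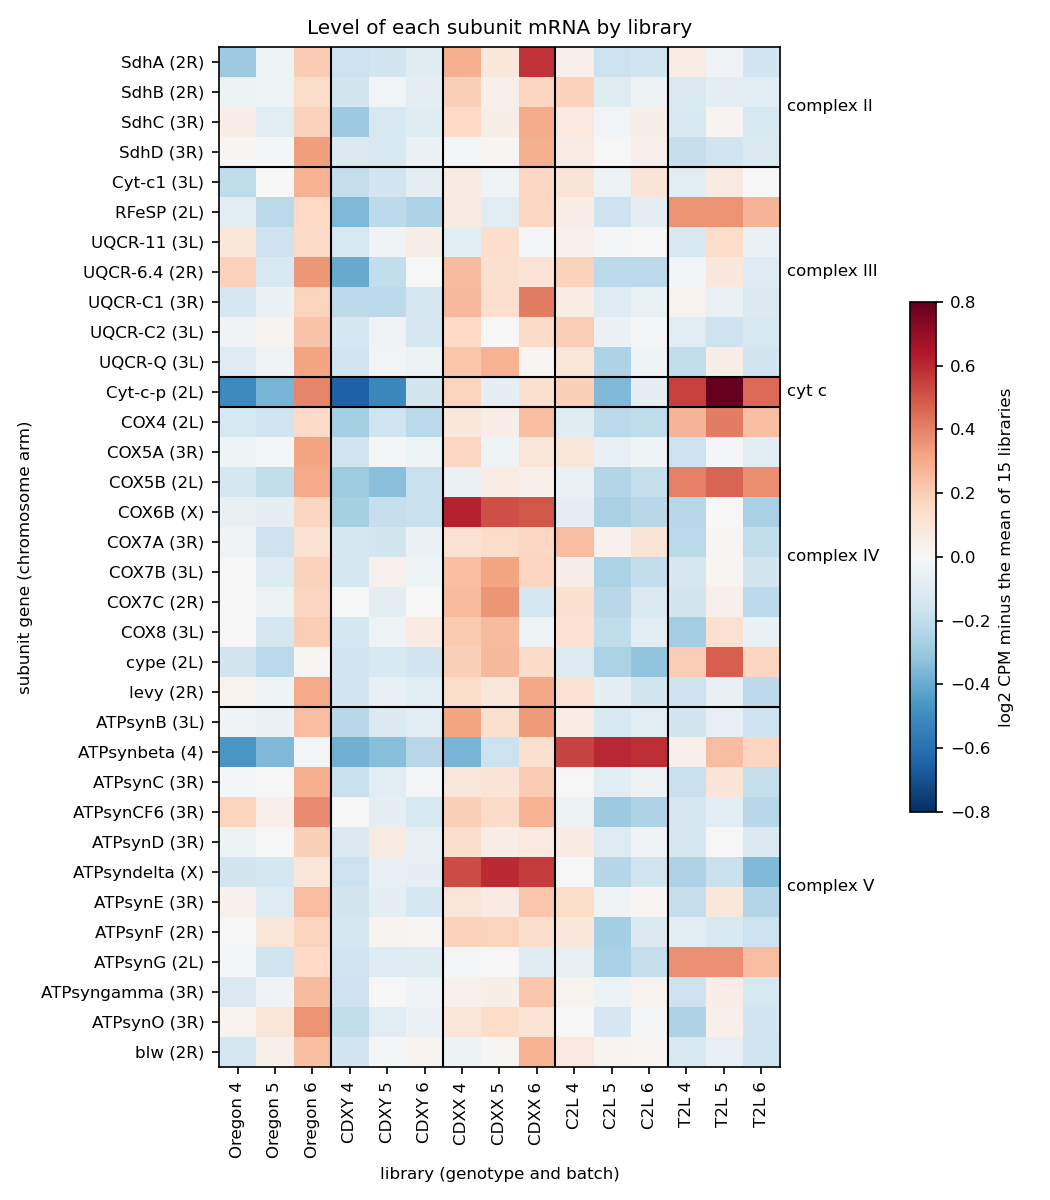
Level of the 34 subunit mRNAs in each of 15 libraries, as log2 CPM minus the gene's mean over all libraries, with the chromosome arm of each gene in brackets and complexes divided by lines. The CDXX columns are mostly red and the CDXY columns mostly blue, Oregon 6 is red for nearly every gene, the 2L genes stand out in T2L, COX6B and ATPsyndelta in CDXX, and ATPsynbeta in C2L.

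Complex II, which has no mitochondrially encoded subunit, had 2 of 4 members higher in CDXX than in CDXY, beside 23.1% of all genes. Its median difference was 0.28 on the log2 scale. SdhA, the flavoprotein that oxidises succinate, had 140, 143 and 148 CPM in CDXY replicates 4, 5 and 6, 192, 168 and 236 in CDXX and 129, 154 and 181 in Oregon. The CDXX libraries were all above the CDXY libraries, with replicate 6 far above the other two. The difference was 0.47 ± 0.14 (SE), adjusted p = 0.0151 (edgeR quasi-likelihood), and the call ended when CDXX replicate 6 (adjusted p = 0.072) was left out, and when CDXY replicate 4 was (adjusted p = 0.0513).

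SdhC, a membrane anchor that holds the haem and the ubiquinone site with SdhD, had 48.9, 54.7 and 56.0 CPM in CDXY and 66.7, 61.8 and 73.5 in CDXX, with 62.0, 56.2 and 68.2 in Oregon. CDXY and CDXX did not overlap, and the Oregon libraries reached into the CDXX range. SdhC rose by 0.34 ± 0.091 (SE), adjusted p = 0.0101 (edgeR quasi-likelihood), and was not called without CDXY replicate 4 (adjusted p = 0.0612). SdhB, the iron-sulfur subunit, had 86.9, 94.7 and 91.6 CPM in CDXY, 109.6, 98.6 and 108 in CDXX and 93.6, 93.9 and 106 in Oregon, and SdhD had 49.0, 48.7 and 51.3 in CDXY, 52.8, 53.7 and 64.7 in CDXX and 53.8, 52.8 and 67.0 in Oregon. Both were above CDXY in every CDXX library, with log2 differences of 0.21 and 0.20, and neither passed the test (edgeR adjusted p = 0.0568 and 0.117).

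In complex III, 2 of 7 members were higher in CDXX than in CDXY, beside 23.1% of all genes. UQCR-C1, a core protein facing the matrix, had 233, 232 and 245 CPM in CDXY, 321, 294 and 356 in CDXX and 245, 259 and 303 in Oregon. Every CDXX library was above every CDXY library, and of the Oregon libraries replicate 6 alone reached the CDXX range. The gene rose by 0.45 ± 0.094 (SE), adjusted p = 0.00266 (edgeR quasi-likelihood), and the call held without any single library, with adjusted p of at most 0.0131. The Rieske iron-sulfur protein RFeSP, which takes the first electron from ubiquinol, had 103, 114 and 111 CPM in CDXY, 138, 124 and 147 in CDXX and 124, 113 and 147 in Oregon. Its rise of 0.32 ± 0.10 (SE), adjusted p = 0.0240 (edgeR) ended in 4 of the 6 fits that left out 1 library, with adjusted p of 0.0544 to 0.106 without CDXX replicate 4 or 6 or CDXY replicate 4 or 6.

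The second core protein UQCR-C2 had 165, 177 and 165 CPM in CDXY and 202, 181 and 202 in CDXX, with 178, 183 and 212 in Oregon, and its difference of 0.20 was not called (edgeR adjusted p = 0.0808). UQCR-6.4, a small accessory subunit, had 25.3, 29.2 and 33.6 CPM in CDXY, 39.9, 36.7 and 36.1 in CDXX and 38.1, 30.6 and 42.6 in Oregon. Its difference of 0.36 was not called (edgeR adjusted p = 0.0617). Cyt-c1, the subunit that passes electrons to cytochrome c, and the small subunits UQCR-Q and UQCR-11 had log2 differences of 0.21, 0.25 and 0.056, none of them called. UQCR-11 was the smallest difference of all members and its libraries overlapped.

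Cytochrome c, the soluble carrier between complexes III and IV, was the member with the highest coefficient of variation in 3 of 5 genotypes, at 35.8% in Oregon, 18.5% in CDXY and 18.6% in C2L. In CDXX the highest was ATPsynbeta at 17.8%, and in T2L COX8 at 13.5%. Cyt-c-p had 77.1, 84.3 and 109 CPM in CDXY replicates 4, 5 and 6, 136, 115 and 132 in CDXX and 84.9, 93.4 and 158 in Oregon. CDXY and CDXX did not overlap, but batches differed, with log2 ratios of 0.82, 0.44 and 0.28 within batches 4, 5 and 6. The 1.42-fold difference between CDXX and CDXY was not called (edgeR adjusted p = 0.0847).

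Complex IV had the largest share of calls, 6 of 10 members higher in CDXX than in CDXY, beside 23.1% of all genes. Its summed level was 1797 to 1829 CPM in CDXX, 1382 to 1461 in CDXY and 1453 to 1801 in Oregon. CDXX and CDXY did not overlap, while Oregon reached the CDXX range. The sums of complexes II, III and V did not overlap between CDXX and CDXY either. The complex IV sum includes the X-linked COX6B. Members of complex IV surround the catalytic core encoded by mitochondrial DNA. COX6B, an X-linked subunit on the intermembrane side, had 198, 209 and 209.7 CPM in CDXY, 363, 339 and 334 in CDXX and 228, 225 and 267 in Oregon. The CDXX libraries were above all others of the 5 genotypes. COX6B rose 1.68-fold (0.75 ± 0.093 (SE), adjusted p = 0.000194, edgeR), where 3 copies against 2 would give 1.5-fold, or 0.585 on the log2 scale.

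COX4 had 183, 197 and 189.8 CPM in CDXY, 234, 229 and 261 in CDXX and 202, 198 and 246 in Oregon. The gene cype, the counterpart of COX6C, had 102, 104 and 102 in CDXY, 129, 136 and 126 in CDXX and 102, 97.5 and 114 in Oregon. Both genes lie on 2L, and both were higher in every CDXX library than in any CDXY library. COX4 rose by 0.34 ± 0.092 (SE), adjusted p = 0.0105 (edgeR), and was not called without CDXY replicate 4 (adjusted p = 0.0538). The rise of cype, 0.34 ± 0.093 (SE), adjusted p = 0.0107 (edgeR), held without any single library. COX5B, the zinc-binding subunit, also on 2L, had 104, 100.3 and 112 CPM in CDXY, 122, 132 and 130 in CDXX and 115, 110 and 156 in Oregon. Its CDXX libraries were above CDXY, but the difference of 0.28 was not called (edgeR adjusted p = 0.0604).

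The other called members of complex IV were COX7A, COX7B and levy, the counterpart of COX6A. COX7A had 176, 174 and 188 CPM in CDXY, 210, 214 and 217 in CDXX and 190, 172 and 211 in Oregon. Its rise of 0.25 ± 0.090 (SE), adjusted p = 0.0379 (edgeR) was small and steady across batches (0.26, 0.29 and 0.21), yet each of the 6 fits without 1 library ended the call, with adjusted p of 0.055 to 0.133. COX7B rose 1.22-fold and levy 1.22-fold (edgeR adjusted p = 0.0309 and 0.0383). COX7B was not called without CDXX replicate 4 or 5 or CDXY replicate 4 or 6 (adjusted p from 0.0658 to 0.143), and levy was called in the fit without CDXX replicate 5 alone among the 6 (adjusted p otherwise from 0.0631 to 0.141). COX5A, COX7C and COX8 overlapped between the genotypes and were not called, with log2 differences of 0.15, 0.19 and 0.18.

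Complex V had 3 of 12 members higher in CDXX than in CDXY, beside 23.1% of all genes. The 3 highest mRNAs per kilobase, ATPsynC, ATPsynbeta and blw, were not among these members. ATPsyndelta, an X-linked subunit of the central stalk, had 165, 177 and 176 CPM in CDXY, 266, 281 and 274 in CDXX and 168, 168 and 199 in Oregon. All CDXX libraries were above those of the other 4 genotypes, and the gene rose 1.58-fold (0.66 ± 0.087 (SE), adjusted p = 0.000224, edgeR), with log2 ratios of 0.69, 0.66 and 0.63 within batches. ATPsynB of the peripheral stalk, which holds the F1 head still, had 197, 212 and 215 CPM in CDXY, 286, 251 and 290.3 in CDXX and 225, 222 and 272 in Oregon. It rose by 0.41 ± 0.094 (SE), adjusted p = 0.00453 (edgeR), in a call that held without any single library. ATPsynCF6, also of the peripheral stalk, had 135, 128 and 123 CPM in CDXY, 154, 150.2 and 164 in CDXX and 153, 139 and 175 in Oregon, and CDXX lay above CDXY.

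The rise of ATPsynCF6, 0.28 ± 0.095 (SE), adjusted p = 0.0316 (edgeR) was lost in 5 of 6 fits without 1 library, the exception being that without CDXX replicate 5 (adjusted p otherwise from 0.0589 to 0.114). The F1 head subunits blw and ATPsynbeta overlapped between CDXX and CDXY, with log2 differences of 0.13 and 0.19, and gamma of the central stalk differed by 0.17. The ring subunit ATPsynC differed by 0.22, the stalk subunits ATPsynD and ATPsynO, also called OSCP, by 0.12 and 0.23, and the membrane subunits ATPsynE, ATPsynF and ATPsynG by 0.25, 0.20 and 0.086. None of these was called, with edgeR adjusted p from 0.0711 to 0.437.

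Members off both X and 2L had 8 of 26 called higher in CDXX and none lower, with a median of 0.22, where the other 5829 genes off X and 2L had a median of −0.075, 15.6% higher and 24.4% lower. The 6 members on 2L had 3 called higher and a median of 0.33, against −0.089 for 1556 other genes of that arm. The 2 on X had a median of 0.71, against 0.45 for 1562 other X-linked genes, of which 57.6% were called higher. Scaling the libraries by genes off X and 2L raised the members' median to 0.33 and the count of members higher to 25 of 34, since this scaling moves all differences up by the same step. Without CDXY replicate 4 the count was 5 of 34 and without CDXX replicate 4 it was 8, and 5 members (ATPsynB, ATPsyndelta, COX6B, cype and UQCR-C1) were called in every fit that left out 1 library.

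In T2L brains, 5 of 34 members were higher than in C2L and 1 was lower (edgeR, adjusted p under 0.05), beside 11.6% of all genes higher and 4.05% lower. All 5 that rose, RFeSP, COX4, COX5B, cype and ATPsynG, lie on 2L, the arm present in 3 copies, and the member that was lower was ATPsynbeta on chromosome 4. Of the 6 members on 2L the median difference was 0.50 on the log2 scale, against 0.47 for 1556 other genes of the arm, of which 51.7% were called higher. The 26 members off X and 2L had a median of −0.066 against −0.073 for other such genes. The T2L libraries were above all C2L libraries for 6 members and below for 5, where 21.4% and 16.1% of all genes stood so. Over all members the median was −0.039, against −0.011 over all genes (−0.2, 0.14 and −0.063 within batches 4, 5 and 6) and turned to 0.03 when libraries were scaled by genes off X and 2L.

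COX5B had 122, 108 and 111 CPM in C2L replicates 4, 5 and 6 and 167, 175 and 163 in T2L. COX4 had 206, 190.3 and 192 in C2L and 266, 293 and 261 in T2L, and cype 105, 95.0 and 91.1 in C2L and 129.5, 158 and 128 in T2L. For all 3 complex IV subunits the T2L libraries were above every C2L library, and also above every Oregon library. The rises were 1.49-fold for COX5B, 1.39-fold for COX4 and 1.43-fold for cype (edgeR adjusted p = 0.00579, 0.00459 and 0.00354), and each held without any single library.

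ATPsynG, a membrane subunit of the ATP synthase, had 174, 152 and 159 CPM in C2L and 234, 234 and 215 in T2L. It rose 1.41-fold (0.49 ± 0.086 (SE), adjusted p = 0.00273, edgeR), while its 3 CDXX libraries at 181, 182 and 170.1 lay close to the CDXY values of 163, 169 and 169.7 and to 181, 163 and 203 in Oregon. RFeSP had 136, 117 and 125 CPM in C2L and 168, 169 and 159 in T2L, with no overlap. It rose 1.31-fold (0.39 ± 0.10 (SE), adjusted p = 0.0233, edgeR), and the call ended without C2L replicate 5 or 6 or T2L replicate 4 or 5 (adjusted p from 0.0679 to 0.0814). Cyt-c-p had 138, 94.5 and 115 CPM in C2L and 176, 211 and 166 in T2L, the largest fold of the 6 at 1.59. It was not called (edgeR adjusted p = 0.0607), and its log2 ratios within batches were 0.36, 1.16 and 0.52.

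**Figure D3:**
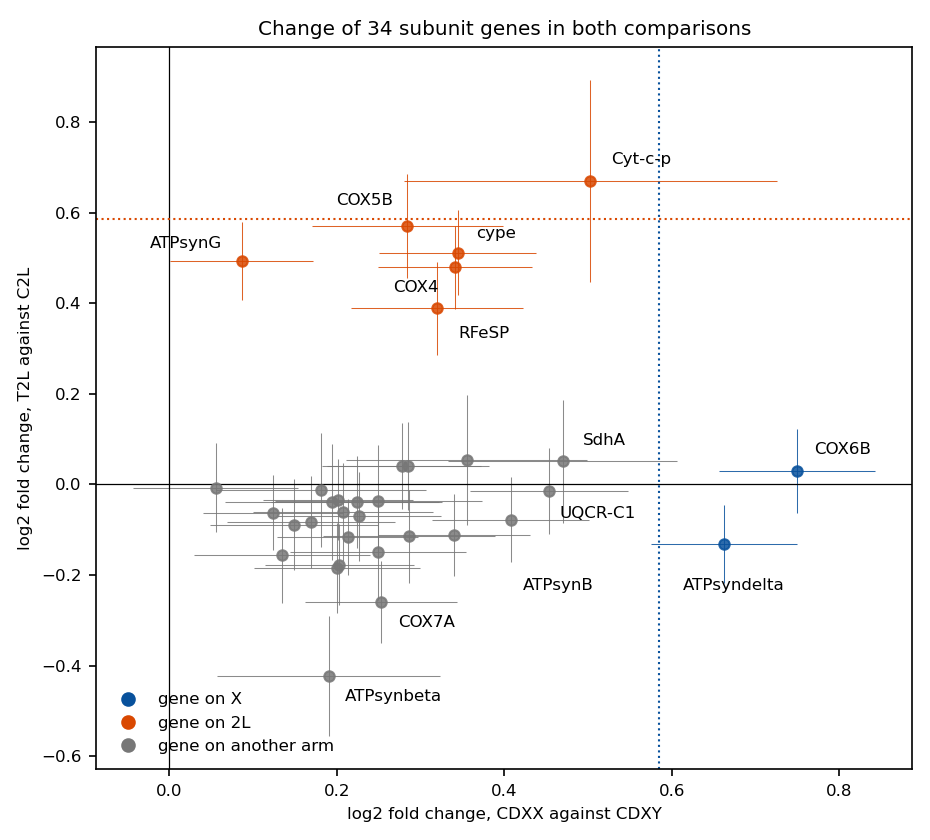
Log2 fold change of each of the 34 subunit genes in CDXX against CDXY (horizontal) and in T2L against C2L (vertical), with standard errors and dotted lines at 0.585, the log2 of 1.5. The 6 genes on 2L (orange) lie between 0.39 and 0.67 on the vertical axis, the 2 on X (blue) at 0.66 and 0.75 on the horizontal one, and the others (grey) between −0.42 and 0.054 vertically.

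Off 2L the subunits of T2L and C2L mostly overlapped. Complex II had no member called and a median of −0.11: SdhA had 163, 140.2 and 142 CPM in C2L and 164, 154 and 142 in T2L, and SdhC 63.2, 59.0 and 61.9 in C2L and 54.9, 60.8 and 54.7 in T2L. SdhB had 109, 89.8 and 93.5 CPM in C2L and 88.6, 90.9 and 90.1 in T2L, and SdhD had 55.4, 53.2 and 54.5 in C2L and 46.8, 47.6 and 49.1 in T2L. Only SdhD stood below C2L in every T2L library, with a log2 difference of −0.18 that was not called (edgeR adjusted p = 0.226). UQCR-C1 had 279, 249 and 259 CPM in C2L and 274, 258 and 247 in T2L, UQCR-C2 207, 175 and 180.1 in C2L and 171, 162 and 165 in T2L, and UQCR-6.4 38.1, 28.9 and 29.0 in C2L and 33.0, 35.5 and 31.2 in T2L. UQCR-C2 was lower in all 3 T2L libraries without being called (edgeR adjusted p = 0.197).

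COX7A had 229, 198 and 207 CPM in C2L and 167, 194 and 169 in T2L, below C2L in each library. Its difference of −0.26 was not called (edgeR adjusted p = 0.0709), although the Wald test of DESeq2 called it (adjusted p = 0.0233). It was also called with the ecdysone covariate and without T2L replicate 5 (edgeR adjusted p = 0.0473 and 0.0452). Neither X-linked subunit was called in T2L. COX6B had 225, 198 and 203 CPM in C2L and 204, 238 and 198 in T2L, and ATPsyndelta 185, 159 and 167 in C2L and 157, 164 and 145 in T2L, both with overlapping libraries. ATPsynB had 239, 209.9 and 216 CPM in C2L and 207, 219.5 and 203 in T2L, and ATPsynCF6 131, 110.2 and 114 in C2L and 123, 127 and 116 in T2L, also overlapping.

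**Figure D4:**
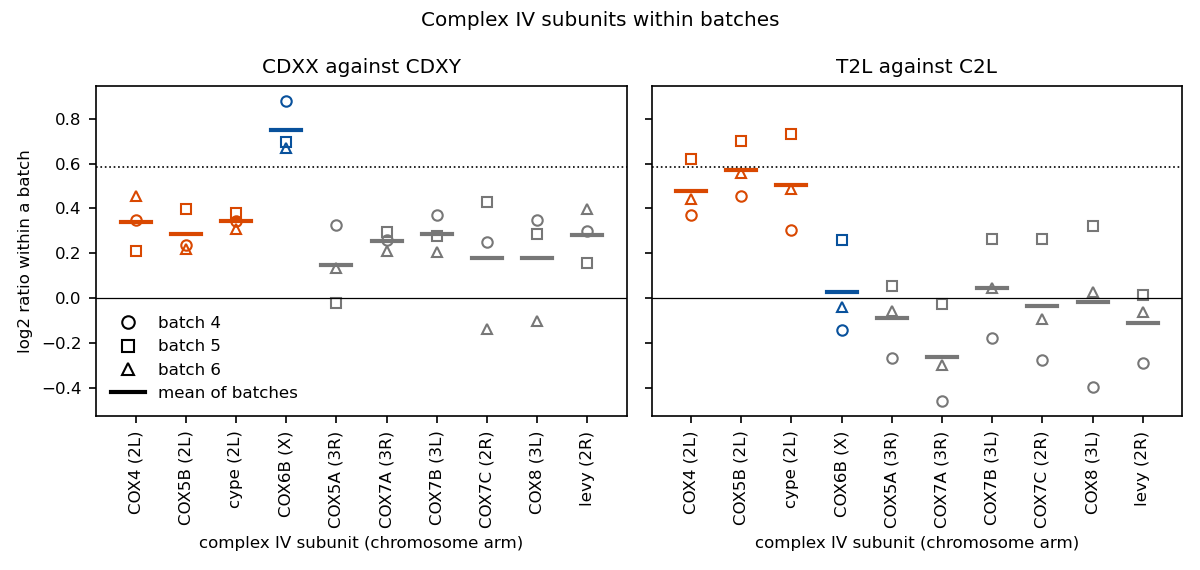
Log2 ratio of each complex IV subunit within batches 4, 5 and 6 (symbols) with their mean (bar), for CDXX against CDXY and T2L against C2L, with a dotted line at 0.585. In T2L the 3 subunits on 2L (orange) lie at 0.30 to 0.73 in every batch and the others scatter around 0, with batch 5 the highest for each gene. In CDXX all means are above 0 and COX6B on X (blue) is the highest at 0.67 to 0.88.

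Subunits of one complex that lie on different arms had different mRNA ratios between genotypes. The mean CPM of the 3 complex IV subunits on 2L, divided by that of the 6 off 2L and X, was 1.46 to 1.52 in the T2L libraries, 0.945 to 1.02 in C2L, 0.979 to 1.01 in CDXY, 1.01 to 1.13 in CDXX and 1.00 to 1.05 in Oregon. COX6B relative to the same 6 subunits was 2.23 to 2.38 in CDXX and 1.54 to 1.78 in the other genotypes. Within complex V, ATPsyndelta over gamma was 0.803 to 0.929 in CDXX and 0.542 to 0.632 elsewhere, and ATPsynG over ATPsynF was 1.31 to 1.37 in T2L and 0.818 to 0.984 elsewhere. In complex III, RFeSP over Cyt-c1 was 1.07 to 1.22 in T2L and 0.768 to 0.966 elsewhere. In each case the ratio in the genotype with the extra arm did not overlap the other 4 genotypes. The numerators were members on that arm already called higher in that genotype, so the ratios largely restate those calls. These ratios of mRNA do not give the ratios of protein.

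ATPsynbeta, the catalytic subunit of the F1 head, was the member that set the 2 control genotypes apart. It had 1898, 1974 and 1965 CPM in C2L replicates 4, 5 and 6, 1342, 1545 and 1467 in T2L, 998, 1030 and 1115 in CDXY, 1005, 1157 and 1424 in CDXX and 942, 1019 and 1288 in Oregon. The C2L libraries were above all others, the T2L libraries were next, with replicate 4 inside the range of CDXX, and Oregon, CDXY and CDXX overlapped. It was 1.80-fold higher in C2L than in Oregon (0.85 ± 0.13 (SE), adjusted p = 0.00320, edgeR), where 0.902% of all genes were called higher, and lower in CDXY than in C2L (−0.89 ± 0.13 (SE), adjusted p = 0.00175, edgeR), where 1.4% were called lower. In T2L it fell by 0.42 on the log2 scale relative to C2L (SE 0.13, edgeR adjusted p = 0.0481). That call ended in each of the 6 fits without 1 library (adjusted p from 0.0713 to 0.154) and when scaled by genes off X and 2L. Relative to Oregon, T2L was higher by 0.42, not called (edgeR adjusted p = 0.0553).

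The alpha subunit, the partner of beta in the F1 head, showed no such gap between C2L and Oregon. Its gene blw had 1200, 1158 and 1149 CPM in C2L, 1040, 1086 and 1020 in T2L and 1034, 1172 and 1345 in Oregon, where C2L lay inside the Oregon range. ATPsynbeta over blw was 1.58 to 1.71 in C2L, 1.29 to 1.44 in T2L and 0.869 to 1.03 in the other 9 libraries. Genes next to ATPsynbeta on chromosome 4 were also higher in C2L, a pattern seen after the values were known and given as a description. A run of 6 consecutive measured genes, toy, PlexA, CG11076, ATPsynbeta, CaMKII and Zyx, was higher in C2L than in Oregon, with log2 differences of 0.85 to 1. From toy to the end of the chromosome (989725 to 1271759), 11 of 20 measured genes were higher and none lower, with a median of 0.59, while of the 67 genes before toy none was higher and 3 were lower. Over all genes, 0.902% were called higher in C2L than in Oregon. In T2L against C2L, 5 of those 20 genes were lower and none higher, with a median of −0.22. Of the 67, 7 were higher, and over all genes 11.6% were higher and 4.05% lower. CG11076 overlaps ATPsynbeta by 191 bases on the opposite strand, 8.01% of its exons.

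**Figure D5:**
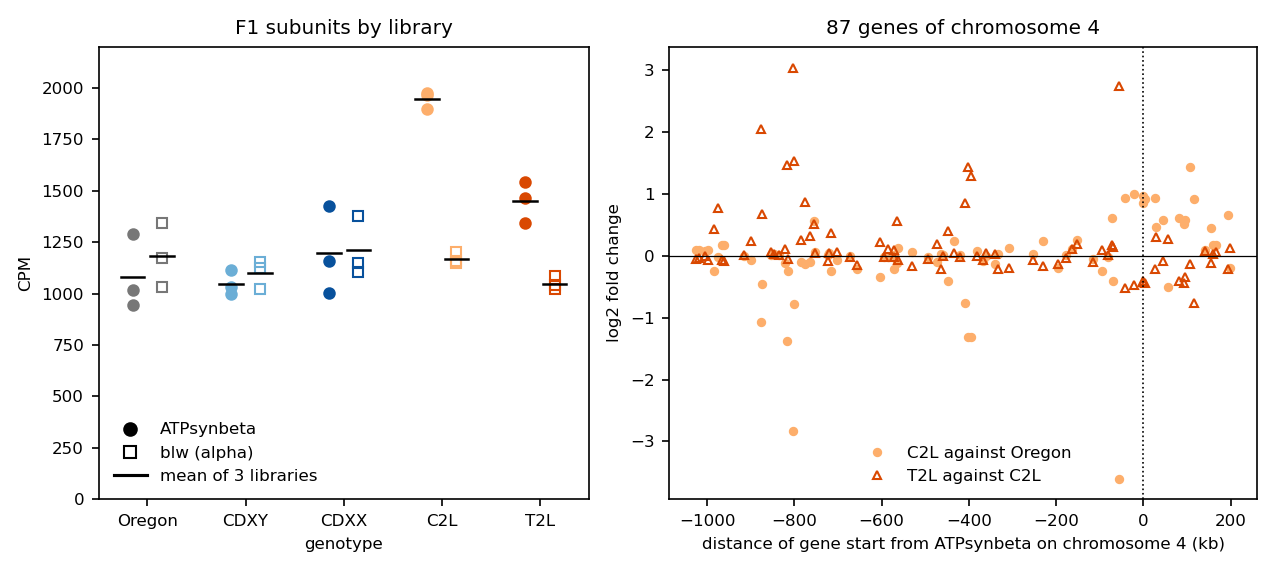
Left, CPM of ATPsynbeta (filled) and blw (open) in each library of the 5 genotypes with means of 3 libraries; right, log2 fold change of 87 measured genes of chromosome 4 by distance of their start from that of ATPsynbeta (kb) for C2L against Oregon and T2L against C2L. ATPsynbeta is at 1898 to 1974 CPM in C2L while blw is at 1149 to 1200, and the genes around ATPsynbeta lie near 0.9 in C2L against Oregon and mostly below 0 in T2L against C2L.

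The difference between the 2 comparisons, CDXX against CDXY minus T2L against C2L, was tested in the same fit. For 8 members it was higher and for 1 lower (edgeR, adjusted p under 0.05), beside 10.5% and 11.8% of all genes. The X-linked subunits ATPsyndelta and COX6B had differences of 0.79 ± 0.12 (SE), adjusted p = 0.00112, and 0.72 ± 0.13 (SE), adjusted p = 0.00227. The 6 higher members off X and 2L were ATPsynbeta (0.61), COX7A (0.51), ATPsynB (0.49), UQCR-C1 (0.47), SdhC (0.45) and UQCR-C2 (0.38), and ATPsynG on 2L was lower (−0.41). The value of ATPsynbeta includes the high C2L control: against Oregon its log2 difference was 0.14 in CDXX and 0.42 in T2L, and CDXX against T2L was −0.28, none of them called, so the order of the 2 genotypes turned when C2L and CDXY were not the controls. Of these 9, ATPsyndelta, COX6B and COX7A were called in all 12 fits that left out 1 library. The count was 4 without C2L replicate 4 or CDXX replicate 6, and 5 without C2L replicate 6, CDXY replicate 5 or T2L replicate 6. For COX7A the values behind the difference were a rise in CDXX and a lower level in T2L that was not called.

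Set directly against T2L, brains of the same age, CDXX had 11 members higher and 3 lower (edgeR; 18% and 19.6% of all genes). The lower ones were ATPsynG, COX5B and RFeSP, all on 2L, with log2 differences of −0.36, −0.39 and −0.28. The higher ones were the X-linked ATPsyndelta (0.82) and COX6B (0.70), and off both arms ATPsynB (0.39), SdhA (0.37), ATPsynCF6 (0.36), COX7B, levy, UQCR-C1, ATPsynF, COX7A and SdhB. The count of 14 became 9 without CDXX replicate 4, 8 without T2L replicate 4 and 6 without T2L replicate 6. This comparison shares its libraries with both of the others and compares 2 genotypes that also differ in both chromosomes.

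Between the controls few members were called. No member differed between CDXY and Oregon in edgeR or DESeq2 (0.857% of all genes were called in edgeR), though all 34 had a fitted difference below 0, with a median of −0.17 against −0.0065 over all genes. At an unadjusted p under 0.05, 9 of 34 members were lower and 0 higher, beside 6.06% and 5.32% of all genes. All 3 CDXY libraries were below all Oregon libraries for 10 members, where 8.96% of all genes stood so. Within batches the members' median was −0.14, −0.032 and −0.3, the last with Oregon replicate 6, which was high for all of them. Between C2L and Oregon the call was ATPsynbeta alone, with ATPsynCF6 lower in the DESeq2 test (adjusted p = 0.00255) and without C2L replicate 4 or Oregon replicate 5 (adjusted p = 0.0279 and 0.0309). ATPsynCF6 was also lower in T2L than in Oregon (−0.36 ± 0.095 (SE), adjusted p = 0.0275, edgeR), a comparison added after the data were seen, in which RFeSP, COX4, COX5B, cype and ATPsynG were again called higher (10.3% of all genes were higher and 2.68% lower). It shares the T2L libraries with the comparison against C2L.

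The rest of the pathway was counted in lists that do not hold the members. Over all genes tested, 23.1% were called higher in CDXX and 11.6% in T2L. Of the X-linked genes that are not members 57.6% were higher in CDXX, and of those on 2L 51.7% were higher in T2L. Of 3 subunits outside the symbol pattern 2 were higher in CDXX: sun, the X-linked epsilon subunit of the ATP synthase (97.5 ± 0.943 CPM, SD over 3 libraries, in CDXY and 183 ± 2.90 in CDXX), and ox, a small complex III subunit (39.2 ± 2.50 and 49.8 ± 5.66). None of the 3 was called in T2L. Of 6 mitochondrially encoded subunits mt:CoII and mt:ATPase6 were higher in CDXX, by 0.41 and 0.45 on the log2 scale (edgeR adjusted p = 0.0226 and 0.0175), and none was called in T2L. These transcripts are counted here from polyadenylated RNA.

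Of 32 genes listed as assembly factors 12 were tested, most of which insert copper and haem or help to build the complexes. Beside 23.1% and 11.6% of all genes, 6 of the 12 were higher in CDXX and 5 in T2L, and none was lower in either. Those in CDXX were Cox17, Coa7 and ttm50 on X, Cox10 and Bcs1 on 2L and Cchl on 3R, which attaches haem to cytochrome c, while those in T2L (Scox, Cox10, Cox11, Ttc19 and bsf) are all on 2L. Of these ttm50 is a homologue of an import translocase subunit and bsf binds mitochondrial mRNA, and without both genes 5 of 10 were higher in CDXX and 4 of 10 in T2L. Cox17, the copper chaperone of complex IV, had 22.4 ± 1.89 CPM, SD over 3 libraries, in CDXY and 47.4 ± 5.45 in CDXX, and Cchl, the one called gene off X and 2L and chosen after its values were seen, had 46.0 ± 4.94 and 74.2 ± 8.03. Of 4 carriers of ATP, phosphate and metabolites, the X-linked ADP/ATP carrier sesB (1063 ± 119.5 and 1805 ± 174 CPM) and the phosphate carrier Mpcp2 were higher in CDXX, and porin, the outer membrane channel on 2L, was higher in T2L (632 ± 38.2 to 850.3 ± 77.8 CPM).

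The citric acid cycle list held 15 tested genes, pyruvate dehydrogenase and the cytosolic Mdh1 included. Beside 23.1% and 11.6% of all genes, 8 of the 15 were higher in CDXX and 3 in T2L, with none lower. The higher genes include the X-linked Idh3a (202 ± 13.6 CPM, SD over 3 libraries, in CDXY and 388 ± 31.3 in CDXX), Fum1 and Pdha. Mdh1 on 2L, a cytosolic malate dehydrogenase and not the enzyme of the cycle, was higher in both (104 ± 14.9 CPM in C2L and 212 ± 41.2 in T2L). The mitochondrial Mdh2 was higher in CDXX by 0.64 on the log2 scale (edgeR adjusted p = 0.00117) and was not called in T2L. All 3 in T2L, mAcon1, Mdh1 and muc, are on 2L. Of 8 regulators of mitochondrial biogenesis only Ets97D, the alpha subunit of the GA-binding protein in flies, was higher in CDXX, with a log2 difference of 0.39 (edgeR adjusted p = 0.0148), and none in T2L.

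Markers of other cells were counted in T2L against C2L in the same way: 2 of 13 muscle genes were higher, 0 of 10 hemocyte and 0 of 19 ecdysone genes were called, 3 of 9 glial and 1 of 11 neuronal genes were higher, and 2 of 8 fat body genes were lower. Their sums overlapped between T2L and C2L for glia (1261 to 2215 against 761 to 1302 CPM), muscle (404 to 461 against 302 to 406), hemocytes (373 to 796 against 325 to 486) and fat body (801 to 908 against 678 to 843), and did not for ecdysone genes (3126 to 3806 against 3981 to 5221). Over all genes, 11.6% were called higher in T2L and 4.05% lower. The part of these marker genes in the subunit levels of T2L was not tested.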

How the data were processed

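Polyadenylated RNA of larval brains was sequenced in 15 libraries, 3 for each of 5 genotypes. The authors deposited 1 table of raw read counts per gene, which per the submitters' processing notes came from Trim Galore, STAR 2.7.10a on dm6 and featureCounts. Of the strand setting, multi-mapping reads and the gene filter nothing is given in the sources used here. The table holds 8990 genes with a smallest mean count of 27, and 8939 matched a symbol in an Ensembl annotation. No sequence was analysed.

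Counts were fitted with edgeR 4.0.16 in R 4.3.3 (TMM factors, filterByExpr, robust quasi-likelihood, 1 mean per group over all 15 libraries). The filter removed 9 genes and left 8981. A gene was called at a Benjamini-Hochberg adjusted p under 0.05. CPM are the deposited counts scaled to one library total with TMM factors. The median biological coefficient of variation was 24.9%. Depth was 22949943 to 28272926 counts. Replicate pairs varied 55.5 to 199 times more than sampling alone gives, so all were kept as separate samples. The fit was tested on simulated counts.

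Per the labels, each library carries a batch number shared across genotypes, and this label is the ground for pairing. The measured support is partial: deviations of same-batch libraries of different genotypes correlated with a median r of 0.129 (16 of 30 pairs over 0.1), against −0.066 in different batches (17 of 60). The batch was fitted as an alternative. Other alternatives were DESeq2 1.42.0, other size factors and filters, factors from genes off X and 2L, fits of the compared groups alone, an ecdysone covariate, and each library left out. Oregon as the control of CDXX and T2L was added after the data were seen.

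Members and lists were chosen with earlier results of these data known. Values in every library were given for up to 3 members per complex with the lowest adjusted p in CDXX and up to 2 in T2L, for members on X or 2L, and for those called in the difference between the comparisons or against the rest of their complex. Genes of other lists were given by counts, with values for up to 3 of lowest adjusted p. Values outside these rules were given for the member blw and the listed genes Mhc, repo, elav, Mdh2 and Cchl.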

Additional observations from a re-analysis of the deposited data

Results flagged for a closer look

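For 9 members the change in CDXX against CDXY differed from the change in T2L against C2L by a test of the difference itself (edgeR quasi-likelihood, adjusted over all genes). On the log2 scale the differences were 0.79 for ATPsyndelta (adjusted p = 0.00112), 0.72 for COX6B (adjusted p = 0.00227), 0.51 for COX7A (adjusted p = 0.0123), 0.49 for ATPsynB (adjusted p = 0.0195), 0.47 for UQCR-C1 (adjusted p = 0.0239), 0.45 for SdhC (adjusted p = 0.0245), −0.41 for ATPsynG (adjusted p = 0.0298), 0.61 for ATPsynbeta (adjusted p = 0.0335) and 0.38 for UQCR-C2 (adjusted p = 0.0464). The value of ATPsynbeta includes a C2L control that was 1.80-fold above Oregon: against Oregon its log2 difference was 0.14 in CDXX and 0.42 in T2L, and CDXX against T2L was −0.28, none of them called. Of 12 fits that left out 1 library, the call ended in 1 for ATPsynB, 4 for UQCR-C1, 5 for SdhC, 7 for ATPsynG, 8 for ATPsynbeta and 10 for UQCR-C2, and in none for ATPsyndelta, COX6B and COX7A. The 2 comparisons differ in the arm present in 3 copies and share the same step in age, and the part of either was not tested.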

How the results depend on the processing

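With mean ecdysone-response level added as a covariate, the members called became 0 in CDXX against CDXY (220 of all genes against 3942), 8 in CDXX against T2L and 3 in the difference (1145 of all genes against 2004). The median of members in CDXX against CDXY was then 0.029, and the log2 differences of levy (−0.014), RFeSP (−0.011) and SdhA (−0.077) turned in sign. In T2L against C2L the covariate fit kept all 6 calls and added COX7A (−0.30, edgeR adjusted p = 0.0473). When libraries were scaled by genes off X and 2L, 25 members were called in CDXX against CDXY with a median of 0.33, the median in T2L against C2L turned to 0.030, and the split of all calls moved to 2432 higher and 1399 lower in CDXX and to 1245 and 163 in T2L. With Oregon in place of CDXY, added after the data were seen, 4 members were called with a median of 0.085, and with Oregon in place of C2L the log2 difference of ATPsynbeta turned to 0.42. DESeq2 called 2 members in C2L against Oregon. Apart from the arithmetic of the scaling, the cause was not tested.

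Leaving out 1 library gave 5 to 12 members in CDXX against CDXY, 4 to 5 in T2L against C2L, 4 to 10 in the difference, 6 to 13 in CDXX against T2L, 1 to 2 in C2L against Oregon, 1 in CDXY against C2L and 0 in CDXY against Oregon. Medians ranged from 0.20 to 0.26 in CDXX and from −0.11 to −0.012 in T2L. Over all genes, T2L against C2L had 755 to 1151 calls against 1408, C2L against Oregon as few as 121 against 192, and CDXY against Oregon as few as 47 against 77. DESeq2 and the compared groups alone gave 353 and 109 genes in C2L against Oregon, 401 and 145 in CDXY against C2L (246 in the full fit), and 176 and 14 in CDXY against Oregon. With the replicate block, 13 members were called in CDXX against CDXY, 6 in T2L against C2L, 10 in the difference and 15 in CDXX against T2L, so no count moved by over 1.5 times.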
